A study of Danio rerio with 6 samples.

Results

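The nuclear-encoded respiratory chain genes were followed in gonads of juvenile zebrafish that lacked *eif4e1b*, a germline member of the family of mRNA cap-binding translation factors. Members were the genes whose symbol begins with ndufa, ndufb, ndufc, ndufs or ndufv for complex I, sdha to sdhd for complex II, uqcr for complex III, cox4 to cox8 for complex IV and atp5 for complex V, without the assembly factors named ndufaf and sdhaf. This rule gave 97 of the 32520 genes in the count tables, with 43 genes in complex I, 5 in complex II, 8 in complex III, 21 in complex IV and 20 in complex V. Complexes were assigned by symbol alone, which counts *ndufa4*, *ndufa4b*, *ndufa4l2* and *ndufa4l2b* in complex I. The mutant group was tg(ziwi:GFP), *eif4e1b* -/- (3 samples), and the wild-type (WT) group was tg(ziwi:GFP), *eif4e1b* +/+ (3 samples). All fish carried the transgene, in which the germ-cell promoter of *ziwi* drives GFP, and all gonads were taken for high GFP. Each sample pooled 3 gonads, so variation between individual fish is averaged within a sample. The study made more than 1 deletion allele, and the labels do not say which one these gonads carried.

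The respiratory chain passes electrons from NADH through complex I, and from succinate through complex II, to ubiquinone, then through complex III and cytochrome c to complex IV, which reduces oxygen. Complexes I, III and IV pump protons across the inner mitochondrial membrane, and complex V, the ATP synthase, uses their return to make ATP. Most subunits are encoded in the nucleus, and complex IV has subunits with several isoforms that differ between tissues in mammals. Growing oocytes accumulate large numbers of mitochondria.

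Total counts were 5539470 to 8233080 in mutant samples and 11771342 to 13362230 in WT samples, so low genes were measured less precisely in mutants. The mutated gene itself had 55, 9 and 24 counts in mutant samples, against 1391, 1116 and 1386 in WT samples (log2 fold change -4.92 ± 0.55 SE, adjusted p = 0.000601 in edgeR's quasi-likelihood test). The samples are labelled as ovary. The oocyte marker list summed to 551, 87.8 and 114 CPM (counts scaled to library size with TMM factors) in mutant samples, against 18050, 14440 and 16690 CPM in WT samples, and testis somatic markers to 1807, 1166 and 1491 CPM, against 313, 35.8 and 39.5 CPM. Exocrine pancreas markers summed to 43980, 65810 and 74190 CPM in mutant samples, against 342, 128 and 444 CPM in WT samples. Liver markers summed to 1066, 128800 and 16860 CPM, against 344, 129 and 3176 CPM, so mutant replicate 2 stood apart. Skeletal muscle markers summed to 1595, 823 and 580 CPM, against 211, 170 and 139 CPM. All 3 of these tissue lists were higher in every mutant sample than in WT replicates 1 and 2, and the liver list of mutant replicate 1 was below that of WT replicate 3. In bulk samples, fewer cells of a type and less RNA per cell cannot be told apart.

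Most of the chain was not called between genotypes. Only complex IV had members called in both directions. Its shares of 42.9% higher and 38.1% lower lay near those of all genes, 37.5% and 32.0%. Of the 97 members, 92 passed the filter on low counts. The mutant samples were higher for 10 of these and lower for 19, and 63 did not pass an adjusted p of 0.05 (edgeR's quasi-likelihood test, Benjamini-Hochberg adjusted). Over all 20091 genes tested, 37.5% were called higher and 32.0% lower in the mutant, 69.5% in either direction. With all samples, the members' shares, 10.9% higher and 20.7% lower, were below these backgrounds in both directions. For lower members this did not hold without mutant replicate 2. Their median log2 fold change was -0.14, against 0.23 over all genes tested. This median depended on scaling. It was 0.20 with library totals only and 0.55 when upper-quartile factors were used, where the median of all genes was 0.65 and 0.92, so that the members lay below all genes by 0.37 with TMM factors, by 0.44 with library totals and by 0.36 with upper-quartile factors. Values did not overlap between genotypes for 34 of the tested members. Every mutant sample lay above every WT sample for 13 of them, against 39.8% of all genes, and below for 21, against 35.4% of all genes.

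**Figure D1:**
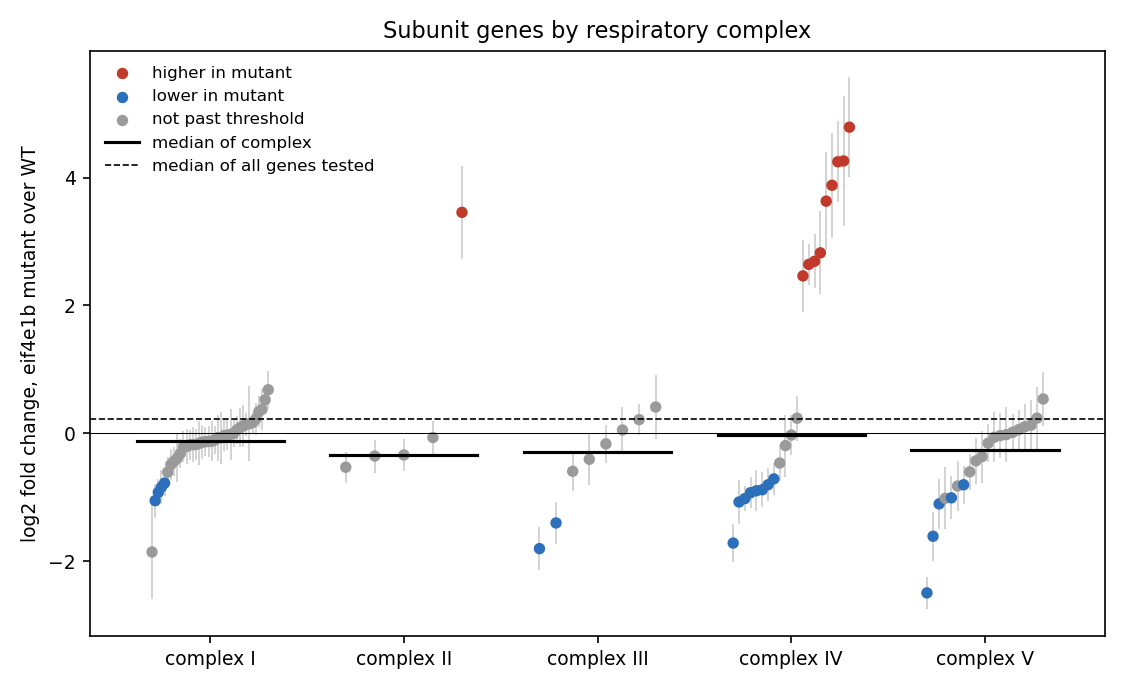
Log2 fold change of mutant over WT (vertical axis) for each of the 92 members tested, by complex, with the standard error as a grey bar; red and blue points passed an adjusted p of 0.05, short lines mark the median of each complex and the dashed line the median of all genes tested (0.23). The 9 red points of complex IV lie between 2.46 and 4.79, and the lowest blue point is *atp5if1a* at -2.50.

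The number of lower members rested on mutant replicate 2. It was 40 of 93 members tested without that sample, against 19 of 92 with all samples. Of all genes tested without that sample, 6666 of 21164 were lower, a smaller share than that of the members. The number of lower members was 10 without mutant replicate 1, 10 without WT replicate 3 and 11 without WT replicate 1. In the same order, 5956 of 20897, 5558 of 20924 and 6397 of 20890 genes tested were lower. Scaling moved it as well, to 6 with library totals and to 3 with upper-quartile factors (*uqcr10*, the *cox7a2* copy ENSDARG00000110700 and *atp5if1a*). The lower genes among all 20091 tested fell too, from 6437 with TMM factors to 3740 with library totals and 4001 with upper-quartile factors. The number of higher members was 10 or 11 whichever sample was left out, where 6140 to 7818 of all genes were higher. Summed over all 97 members, the chain took 3346, 6802 and 3665 CPM in mutant samples, against 7050, 5477 and 6324 CPM in WT samples (mean 4604 ± 1910 and 6284 ± 787, SD, n = 3 each). Mutant replicate 2, the sample with the most liver-marker RNA, lay among the WT samples, while the other mutant samples lay below all of them. These sums rest on TMM factors of 1.48, 0.79 and 1.27 in mutant samples and 0.84, 0.92 and 0.87 in WT samples. As shares of raw counts, without TMM factors, the chain took 0.493%, 0.532% and 0.464% in mutant samples, against 0.592%, 0.505% and 0.547% in WT samples. Mutant replicate 2 again lay among the WT samples, but the order of the samples changed. Mutant replicate 1 was then only slightly below WT replicate 2. Complex I alone took 0.145%, 0.128% and 0.14% of raw counts in mutant samples, against 0.129%, 0.108% and 0.117% in WT samples. The part of the liver-marker RNA in these sums was not tested.

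**Figure D2:**
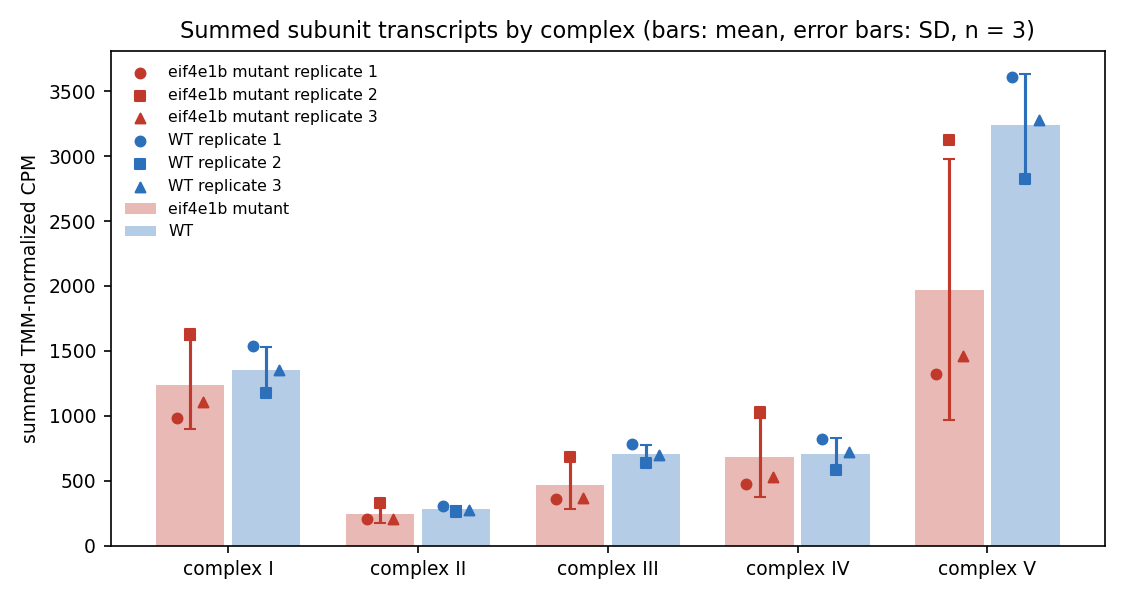
Summed TMM-normalized CPM (vertical axis) of the members of each complex in mutant (red) and WT (blue) samples, with the mean as a bar, the SD as an error bar and 1 point per sample. For complex V, mutant replicates 1 and 3 sit at 1325 and 1459 CPM, mutant replicate 2 at 3127 CPM and the WT samples between 2824 and 3608 CPM.

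Complex I, the NADH dehydrogenase, changed in few members. None of its 38 tested genes was higher, where all genes had 37.5%, and 4 were lower (10.5%, against 32.0% of all genes), with a median log2 fold change of -0.13 (0.24 with library totals and 0.56 with upper-quartile factors). The absence of higher genes depended on scaling. Both *ndufa8* and *ndufb6* were called higher with library totals and with upper-quartile factors, and further members with the latter. Of all 20091 genes, 8250 and 9840 were then higher. Among the core subunits, which include those carrying the flavin and the iron-sulfur clusters, 1 of 7 was lower. This was *ndufv1*, the subunit that binds NADH and FMN, with 40.5, 72.8 and 47.9 CPM in mutant samples, against 112, 87.2 and 89.7 CPM in WT samples. All mutant values were below all WT values (log2 fold change -0.84 ± 0.26 SE, adjusted p = 0.0251, edgeR), but the call was lost when mutant replicate 1, WT replicate 1 or WT replicate 3 was left out (adjusted p = 0.0581, 0.0611 and 0.0519, edgeR). The call of *ndufv1* was also lost with library totals, with upper-quartile factors and with the replicate number as a block. Among the accessory subunits, 3 of 31 were lower, *ndufs6*, *ndufa7* and *ndufa1*. The call of *ndufa1* was lost without WT replicate 3, with library totals and with upper-quartile factors. The zinc-binding subunit *ndufs6* had 7.47, 6.67 and 6.67 CPM in mutant samples, against 18.4, 11.7 and 13.2 CPM in WT samples (log2 fold change -1.05 ± 0.27 SE, adjusted p = 0.0117, edgeR). For *ndufa7*, mutant samples had 11.6, 14.4 and 11.7 CPM, against 24.5, 21.2 and 26.0 CPM in WT samples (log2 fold change -0.93 ± 0.21 SE, adjusted p = 0.00714, edgeR). Neither gene overlapped between genotypes, and both calls were lost with library totals and with upper-quartile factors.

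The core subunit *ndufs8*, which holds iron-sulfur clusters, had 57.1, 169 and 83.9 CPM in mutant samples, against 124, 90.3 and 99.0 CPM in WT samples, and the genotypes overlapped (log2 fold change -0.02 ± 0.40 SE, adjusted p = 0.971, edgeR). Its duplicate *ndufs8b* had 8.08, 5.43 and 14.0 CPM, against 71.1, 12.5 and 16.4 CPM, and WT replicate 1 alone was far above the rest (log2 fold change -1.86 ± 0.73 SE, adjusted p = 0.0565, edgeR). The gene *ndufs8b* was called lower under 7 of 15 alternatives, among them DESeq2. The remaining tested members that were not called had log2 fold changes of at most 0.68 in either direction, the highest being *ndufb6* at 0.68 (adjusted p = 0.0744, edgeR). Of these, *ndufv3* was called lower under 5 of 15 alternatives and *ndufa8* higher under 4, and *ndufv3* changed direction with upper-quartile factors. Some members could not be tested. The genes *ndufa4b*, *ndufa4l2*, *ndufa4l2b*, *ndufa9b* and *ndufs1* did not pass the filter. The isoform *ndufa4l2*, which is induced by low oxygen in mammals, had 0, 1.4 and 0.53 CPM in mutant samples, against 0.09, 0 and 0.17 CPM in WT samples. The gene with the symbol *ndufs1*, the largest core subunit, held 0 to 2 counts in every sample, so its transcript level is not known from this entry.

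Complex II, succinate dehydrogenase, had 1 higher member among 5 (20%, against 37.5% of all genes) and none lower. The flavoprotein *sdha*, which oxidizes succinate, had 98.6, 173 and 104 CPM in mutant samples, against 135, 124 and 133 CPM in WT samples, and the genotypes overlapped (log2 fold change -0.07 ± 0.26 SE, adjusted p = 0.828, edgeR). The membrane anchor *sdhd* is present in 2 copies. The copy ENSDARG00000055712 had 22, 16 and 23 counts in mutant samples, against 4, 0 and 4 counts in WT samples, and was higher (log2 fold change 3.46 ± 0.73 SE, adjusted p = 0.00579, edgeR), but no WT sample reached the filter, so it was tested only because mutant samples were high. The copy ENSDARG00000030139 had 7.84, 11 and 7.47 CPM, against 11.6, 10.8 and 11.3 CPM, and was not called (log2 fold change -0.36 ± 0.26 SE, adjusted p = 0.25, edgeR). The low copy made up 24.4 ± 5.46% of the counts of both in mutant samples and 2.01 ± 1.74% in WT samples (SD, n = 3 each), without overlap.

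Complex III, ubiquinol-cytochrome c reductase, had 2 lower members among 8 and none higher, 25% against the 32.0% of all genes. The Rieske iron-sulfur protein *uqcrfs1*, which takes electrons from ubiquinol, had 72.1, 147 and 70.4 CPM in mutant samples, against 266, 245 and 253 CPM in WT samples. Even mutant replicate 2 was below every WT sample (log2 fold change -1.40 ± 0.33 SE, adjusted p = 0.00851, edgeR). The small subunit *uqcr10*, which sits beside the Rieske protein, had 26.6, 45.3 and 18.4 CPM, against 106, 94.2 and 115 CPM (log2 fold change -1.80 ± 0.34 SE, adjusted p = 0.00371, edgeR). The call of *uqcr10* held under all 15 alternatives that gave it a value, and that of *uqcrfs1* was lost only with upper-quartile factors. The core proteins *uqcrc1*, *uqcrc2* and *uqcrc2a* and the subunits *uqcrb*, *uqcrh* and *uqcrq* were not called and overlapped between genotypes, with log2 fold changes from -0.60 to 0.41. Beside these, *cyc1*, which encodes cytochrome c1, the remaining catalytic nuclear subunit of the complex, had 43.6, 122 and 53.2 CPM in mutant samples, against 86.9, 65.6 and 77.8 CPM in WT samples (log2 fold change -0.08 ± 0.40 SE, adjusted p = 0.873, edgeR).

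Complex IV, cytochrome c oxidase, was the only complex with more members called than not. Of its 21 members, 9 were higher and 8 lower, and 17 did not overlap between genotypes, where 75.2% of all genes did not overlap. The called shares of 42.9% higher and 38.1% lower lie close to the 37.5% and 32.0% of all genes. The higher members were isoforms with few counts in WT samples, and the lower members included the copies that held most of the counts of the same subunit there. The median of -0.03 therefore describes neither set, and it was 0.66 with upper-quartile factors. In 4 of the higher members, *cox4i1l*, *cox4i2*, *cox7a1* and the copy of *cox5b* with the identifier ENSDARG00000113254, no WT sample reached the filter. Over the whole chain this held for 5 of the 92 members tested, all of them among the 10 higher, and over all genes for 2664 of 20091. Such genes were tested only because mutant samples were high, and their calls are a description. The other 5 higher members of complex IV, the *cox5b* copy ENSDARG00000068738, *cox6b1*, *cox8a*, *cox8b* and the *cox6a1* copy ENSDARG00000054588, kept their call under all 15 alternatives that gave each a value. Of these, the *cox5b* copy had 2 WT samples over the filter and the *cox6a1* copy had 1, fewer than the 3 samples needed. Mutant samples were thus required for both to be tested, and their calls are a description as well.

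The subunit COX5B, which binds zinc, is encoded by 3 genes that share the symbol *cox5b*. The gene ENSDARG00000068738, named *cox5b2* in the study's gene table, had 38.8, 153 and 50.7 CPM in mutant samples, against 4.09, 0.92 and 3.72 CPM in WT samples. Every mutant sample was above every WT sample, and the difference was the largest of the chain (log2 fold change 4.79 ± 0.78 SE, adjusted p = 0.00218, edgeR). Mutant samples were required for *cox5b2* to be tested, so its call is a description. The gene ENSDARG00000015978 had 42.6, 40.0 and 31.1 CPM, against 88.8, 53.6 and 74.2 CPM, and was lower (log2 fold change -0.93 ± 0.24 SE, adjusted p = 0.0134, edgeR), with a call that was lost with library totals and with upper-quartile factors. The copy ENSDARG00000113254 had 14, 24 and 14 counts in mutant samples, against 7, 2 and 2 counts in WT samples (log2 fold change 2.82 ± 0.65 SE, adjusted p = 0.00796, edgeR). No WT sample of that copy reached the filter, so its call is a description as well. As shares of the counts of all 3 genes, *cox5b2* took 46.7%, 77.8% and 60.6% in mutant samples, against 4.37%, 1.68% and 4.77% in WT samples. These shares are not corrected for transcript length, and how reads that match several copies were counted is not known.

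**Figure D3:**
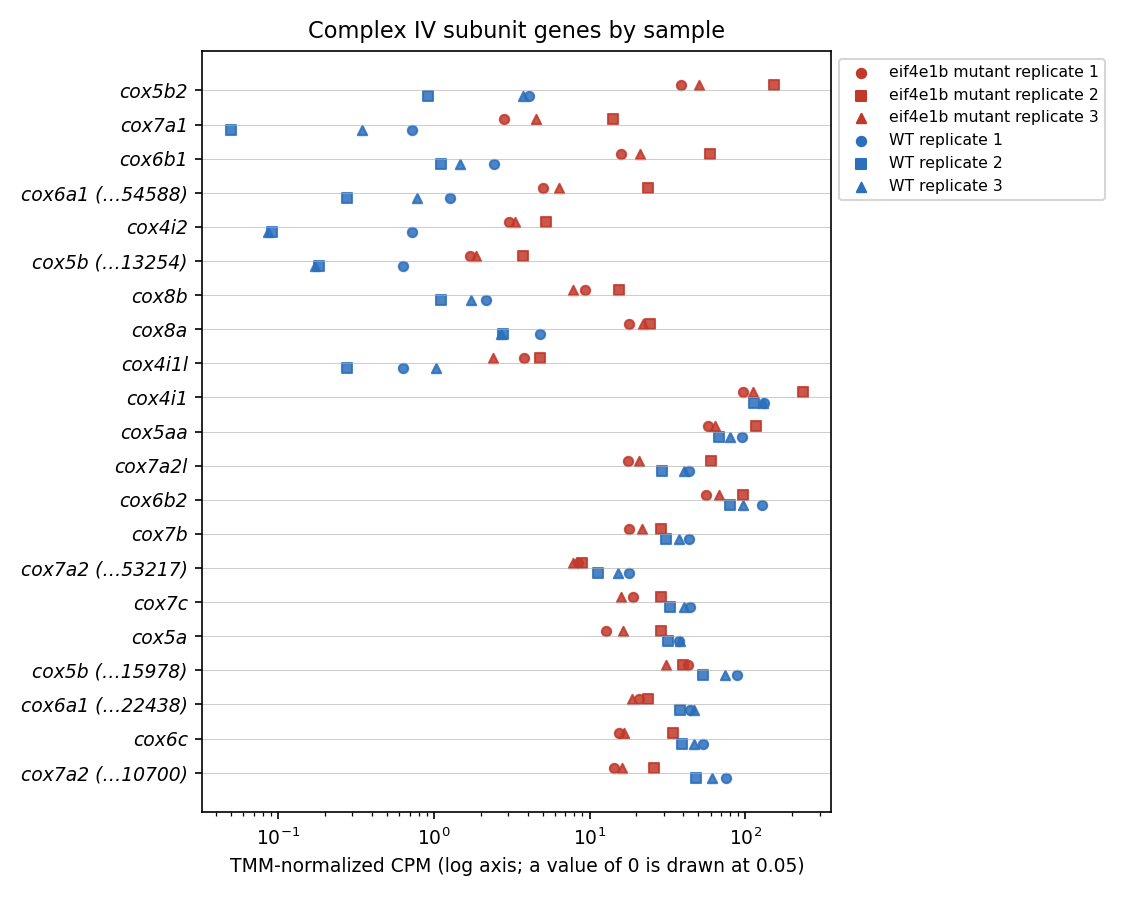
TMM-normalized CPM (horizontal log axis) of the 21 complex IV genes in the 3 mutant samples (red) and the 3 WT samples (blue), ordered by log2 fold change. In the upper 9 genes every mutant point lies to the right of every WT point, in the lower 8 to the left, and mutant replicate 2 (red square) is the highest mutant sample of *cox5b2* at 153 CPM.

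COX6A, a regulatory subunit, and COX6B, which faces the intermembrane space, each have a gene that was higher. The *cox6a1* copy ENSDARG00000054588 had 5.02, 23.6 and 6.40 CPM in mutant samples, against 1.27, 0.28 and 0.78 CPM in WT samples (log2 fold change 3.88 ± 0.82 SE, adjusted p = 0.00579, edgeR). Mutant samples were required for this copy to be tested, so its call is a description. The other copy, ENSDARG00000022438, had 20.8, 23.9 and 18.8 CPM, against 44.2, 37.8 and 47.1 CPM (log2 fold change -1.02 ± 0.19 SE, adjusted p = 0.00356, edgeR). Both were without overlap, in opposite directions, and the lower call was lost with library totals and with upper-quartile factors. The gene *cox6b1* had 15.9, 59.4 and 21.1 CPM in mutant samples, against 2.45, 1.11 and 1.47 CPM in WT samples (log2 fold change 4.25 ± 0.63 SE, adjusted p = 0.0016, edgeR). Its relative *cox6b2*, whose mammalian namesake is a testis isoform, had 56.2, 96.0 and 68.2 CPM, against 128, 79.3 and 97.0 CPM, and the genotypes overlapped (log2 fold change -0.47 ± 0.28 SE, adjusted p = 0.171, edgeR). The share of *cox6b1* in the counts of both was 28.0 ± 8.91% in mutant samples and 1.58 ± 0.263% in WT samples (SD, n = 3 each).

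COX7A, a small membrane subunit, is encoded by *cox7a1*, the heart and muscle form in mammals, and 2 genes with the symbol *cox7a2*. The gene *cox7a1* had 2.82, 14.1 and 4.54 CPM in mutant samples, against 0.73, 0 and 0.35 CPM in WT samples (log2 fold change 4.26 ± 1.02 SE, adjusted p = 0.00944, edgeR). No WT sample reached the filter for *cox7a1*, so its call is a description. The *cox7a2* copy ENSDARG00000110700 had 14.3, 25.8 and 16.1 CPM, against 75.7, 48.4 and 60.7 CPM, and was the most reduced gene of complex IV (log2 fold change -1.72 ± 0.30 SE, adjusted p = 0.00268, edgeR). Its share in the counts of the 3 genes was 55.1 ± 2.08% in mutant samples and 80.3 ± 0.668% in WT samples (SD, n = 3 each), and its call held under all 15 alternatives that gave it a value. The other *cox7a2* copy was also lower, at a log2 fold change of -0.81, a call lost without mutant replicate 1 or WT replicate 3. That call was lost as well with library totals, with upper-quartile factors and with the replicate number as a block. Skeletal muscle markers, higher in every mutant sample, summed to 1595, 823 and 580 CPM in mutant samples, against 211, 170 and 139 CPM in WT samples, and their part in these values was not tested. Heart muscle markers summed to 16.5, 43.4 and 8.0 CPM in mutant samples, against 18.5, 7.74 and 9.69 CPM in WT samples.

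**Figure D4:**
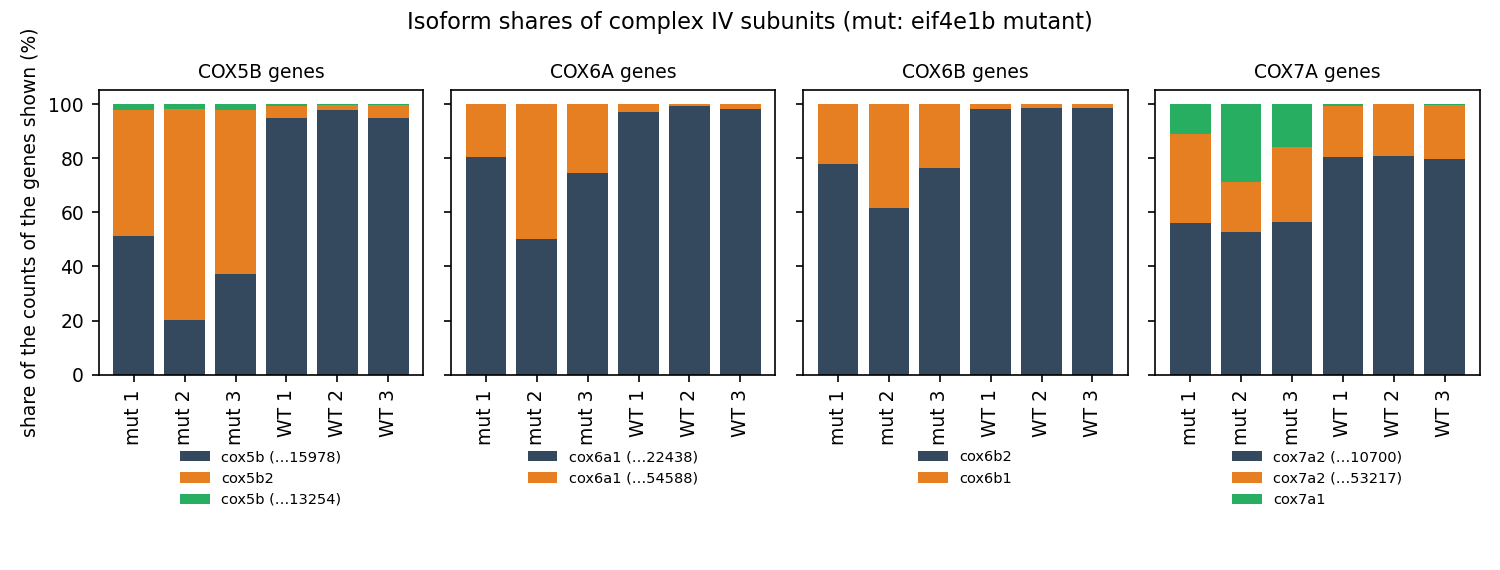
Share of raw counts (vertical axis, %) that each gene takes within 4 complex IV subunits, for the 3 mutant and the 3 WT samples. In all 4 subunits the gene drawn at the bottom takes a smaller share in every mutant sample than in every WT sample, for COX5B 51.3%, 20.3% and 37.2% against 95.0%, 98.0% and 95.0%.

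COX4, the subunit at which ATP acts on the enzyme, kept its main gene. The gene *cox4i1* had 96.1, 234 and 111 CPM in mutant samples, against 131, 113 and 131 CPM in WT samples (log2 fold change 0.24 ± 0.36 SE, adjusted p = 0.573, edgeR), and took 94.8 ± 1.29% of the counts of the 3 COX4 genes, against 99.3 ± 0.366% in WT samples. The isoform *cox4i2*, a lung form in mammals that is linked to oxygen sensing, had 25, 34 and 25 counts in mutant samples, against 8, 1 and 1 counts in WT samples (log2 fold change 3.63 ± 0.77 SE, adjusted p = 0.00587, edgeR). No WT sample reached the filter for *cox4i2*, so its call is a description. COX8, a small membrane subunit, was higher in both of its genes. The gene *cox8b*, a heart and muscle form in some mammals, had 9.31, 15.5 and 7.87 CPM, against 2.18, 1.11 and 1.73 CPM (log2 fold change 2.69 ± 0.43 SE, adjusted p = 0.00197, edgeR), and *cox8a* had a log2 fold change of 2.64. The share of *cox8a* in the counts of both was 66.8 ± 6.22% in mutant samples and 67.0 ± 5.55% in WT samples, so the isoforms rose together.

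Of the subunits with a single called direction, *cox6c* had 15.4, 34.1 and 16.5 CPM in mutant samples, against 53.4, 39.0 and 46.7 CPM in WT samples (log2 fold change -1.08 ± 0.35 SE, adjusted p = 0.028, edgeR). This call was lost with library totals, with upper-quartile factors and without mutant replicate 1, WT replicate 1 or WT replicate 3. COX5A, which lies on the matrix side, has 2 genes. The gene *cox5a* had 12.7, 28.6 and 16.4 CPM, against 37.2, 32.1 and 38.2 CPM (log2 fold change -0.90 ± 0.32 SE, adjusted p = 0.0395, edgeR), a call lost when any sample but mutant replicate 2 was left out. Library totals, upper-quartile factors, the replicate number as a block and a mean of at least 10 counts also removed the call of *cox5a*. Its duplicate *cox5aa* overlapped between genotypes (log2 fold change -0.03 ± 0.31 SE, adjusted p = 0.942, edgeR). The remaining lower members were *cox7c* and *cox7b*, at log2 fold changes of -0.88 and -0.71. Their calls were lost in the same settings as that of *cox6c*, and also with the replicate number as a block. The gene *cox7a2l*, a factor that joins complexes III and IV, was not called.

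The changed isoforms were also read beside the tissue lists. Skin markers summed to 3030, 1484 and 2352 CPM in mutant samples, against 979, 729 and 733 CPM in WT samples. Adipocyte markers summed to 329, 606 and 298 CPM, against 59.3, 30.5 and 35.3 CPM, and leukocyte markers to 385, 364 and 354 CPM, against 161, 111 and 38.7 CPM. The sums of these lists and those of exocrine pancreas, skeletal muscle, testis somatic cells, ovarian somatic cells and spermatids and sperm were higher in every mutant sample than in every WT sample. For these tissues the genotype and the makeup of the sample cannot be told apart. Not every gene of a list followed its sum. Of the ovarian somatic list, 57.1% of 7 tested genes were called higher and 14.3% lower. Of the skin list, 63.6% of 11 were called higher and 9.09% lower, where all genes had 37.5% and 32.0%. Without mutant replicate 2, complex IV had 9 higher and 10 lower members, where 7568 of 21164 genes tested were higher and 6666 lower. The part of liver-marker RNA in the values of the other samples was not tested. An exact permutation test of 3 samples against 3 cannot give a p below 0.1, so the shares of duplicated genes are given as a description.

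Complex V had the lowest ratio of summed transcripts, and its inhibitor showed the largest fall. The sum was 1325, 3127 and 1459 CPM in mutant samples, against 3608, 2824 and 3276 CPM in WT samples. As shares of raw counts, without TMM factors, it was 0.195%, 0.245% and 0.185%, against 0.303%, 0.26% and 0.283%. On that scale mutant replicate 2 was also below every WT sample. Of its 20 members none was higher and 5 were lower (25%, below the 32.0% of all genes), with a median log2 fold change of -0.26 (0.43 with upper-quartile factors). The gene *atp5if1a*, an inhibitor that blocks ATP hydrolysis by the synthase when the proton gradient fails, had 91.3, 104 and 68.6 CPM in mutant samples, against 469, 486 and 536 CPM in WT samples. Mutant replicate 2 lay with the other mutant samples, and the genotypes were far apart (log2 fold change -2.50 ± 0.25 SE, adjusted p = 0.000461, edgeR). The call held under all 15 alternatives that gave it a value. Its duplicate *atp5if1b* had 29.4, 82.2 and 29.0 CPM in mutant samples, against 56.8, 28.0 and 34.4 CPM in WT samples, and overlapped (log2 fold change 0.24 ± 0.48 SE, adjusted p = 0.678, edgeR). The share of *atp5if1b* in the counts of both was 24.3%, 44.1% and 29.7% in mutant samples, against 10.8%, 5.45% and 6.03% in WT samples.

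With TMM factors, the catalytic F1 head of complex V turned on mutant replicate 2. The alpha subunit *atp5f1a* had 323, 754 and 367 CPM in mutant samples, against 949, 754 and 856 CPM in WT samples. Mutant replicate 2 matched the lowest WT sample, and the difference did not pass the threshold (log2 fold change -0.83 ± 0.40 SE, adjusted p = 0.1, edgeR). It did pass without mutant replicate 2 (log2 fold change -1.29, adjusted p = 0.00237, edgeR) and with all samples under DESeq2 (adjusted p = 0.0303) and limma-voom (adjusted p = 0.0362). The catalytic beta subunit *atp5f1b* followed the same pattern, with 208, 645 and 236 CPM in mutant samples, against 866, 604 and 735 CPM in WT samples (log2 fold change -1.02 ± 0.49 SE, adjusted p = 0.101, edgeR). Of the head, only the small epsilon subunit *atp5f1e* was lower, at a log2 fold change of -1.01, a call lost without mutant replicate 1, WT replicate 1 or WT replicate 3. That call was lost as well with library totals, with upper-quartile factors and with the replicate number as a block. The 4 genes of the peripheral stalk, which holds the head still, were not called and lay between 0.01 and 0.54.

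The c-ring, the rotor turned by protons, is encoded by 3 genes. The gene *atp5mc1* had 14.8, 39.9 and 16.7 CPM in mutant samples, against 49.4, 48.1 and 55.7 CPM in WT samples, without overlap (log2 fold change -1.10 ± 0.39 SE, adjusted p = 0.0402, edgeR). This call was lost when any sample but mutant replicate 2 was left out, with upper-quartile factors and with a mean of at least 10 counts. The genes *atp5mc3* and *atp5mc3b* overlapped (log2 fold changes -0.15 ± 0.30 and -0.02 ± 0.43 SE, adjusted p = 0.66 and 0.969, edgeR). The share of *atp5mc1* in the counts of the 3 genes was 16.0 ± 0.972% in mutant samples and 28.7 ± 3.4% in WT samples (SD, n = 3 each). Of the small membrane subunits, *atp5md*, which takes part in the pairing of synthases in mammals, had 9.18, 15.5 and 6.80 CPM in mutant samples, against 42.9, 23.4 and 29.9 CPM in WT samples (log2 fold change -1.61 ± 0.38 SE, adjusted p = 0.00874, edgeR). It lost its call only with upper-quartile factors, and *atp5mj* was lower at -0.81, a call lost without mutant replicates 1 or 3 or WT replicates 1 or 3. Library totals, upper-quartile factors, the replicate number as a block and a mean of at least 10 counts also removed the call of *atp5mj*.

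The factors that build the complexes were read beside their subunits. Of 59 assembly factors tested, 26 were lower (44.1%) and 4 higher (6.78%), with a median log2 fold change of -0.50, where all genes had 32.0% lower, 37.5% higher and a median of 0.23. This difference from the subunits was not tested. Without mutant replicate 2 the factors had 28 lower and 3 higher, but with upper-quartile factors 13 lower and 13 higher, and with library totals 11 lower and 7 higher. Of all genes, 6666 of 21164 were lower and 7568 higher without mutant replicate 2. With upper-quartile factors 4001 of 20091 genes were lower and 9840 higher, and with library totals 3740 and 8250. For complex V, *tmem70*, which helps to insert the c-ring, had 9.18, 11.3 and 8.67 CPM in mutant samples, against 114, 112 and 128 CPM in WT samples (log2 fold change -3.60 ± 0.20 SE, adjusted p = 0.000286, edgeR). For complex I, 5 of 16 were lower (31.2%, near the 32.0% of all genes) and 2 higher (12.5%, against 37.5%). The membrane-arm factor *timmdc1* had 17.1, 12.6 and 18.9 CPM, against 70.1, 80.1 and 80.2 CPM (log2 fold change -2.24 ± 0.21 SE, adjusted p = 0.000406, edgeR), and *foxred1* was higher, with 28.4, 108 and 36 CPM, against 10.9, 4.79 and 7.96 CPM (log2 fold change 2.86 ± 0.60 SE, adjusted p = 0.00548, edgeR).

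**Figure D5:**
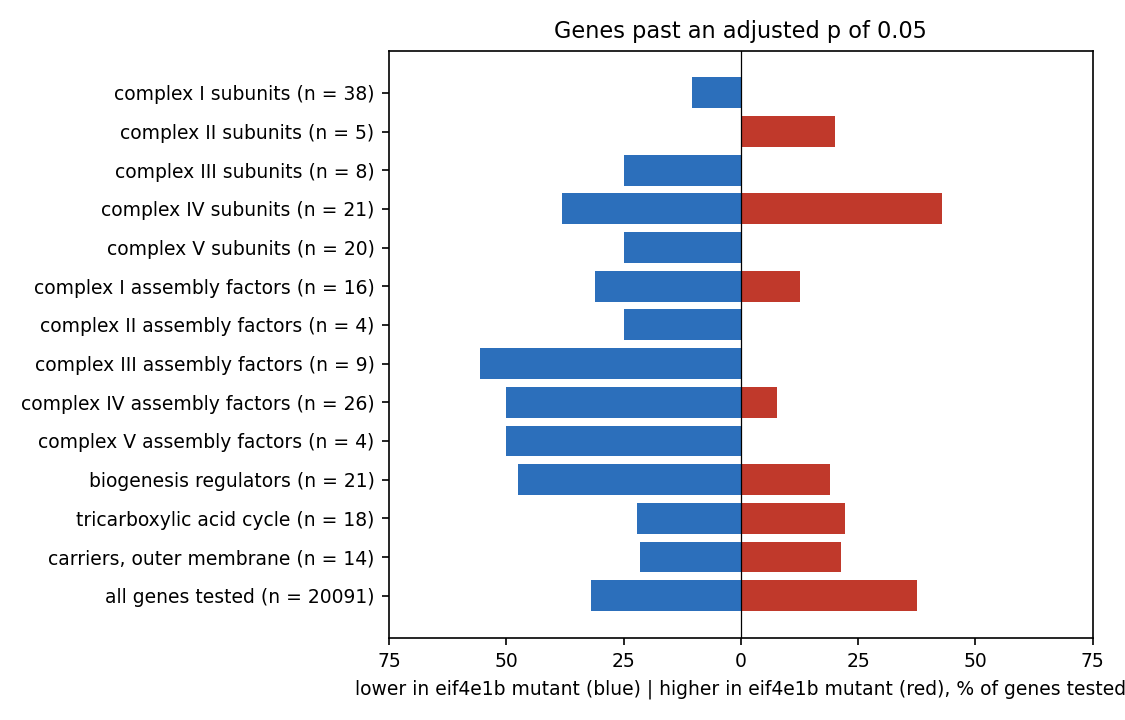
Share of tested genes (horizontal axis, %) that were lower (blue, to the left) or higher (red, to the right) in the mutant at an adjusted p of 0.05, for the subunits and assembly factors of each complex, 3 further mitochondrial lists and all genes tested. The subunits of complex I have 10.5% lower and none higher, and all genes tested have 32.0% lower and 37.5% higher.

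For complex IV, 13 of 26 assembly factors were lower and 2 higher. The factor *coa3b*, one of the proteins that accompany the newly made COX1, had 4.29, 1.71 and 0.80 CPM in mutant samples, against 26.9, 21.3 and 23.4 CPM in WT samples (log2 fold change -3.37 ± 0.56 SE, adjusted p = 0.00234, edgeR). The copper chaperone *cox17*, chosen after its values were seen, had 27.1, 35.4 and 19.6 CPM, against 165, 148 and 155 CPM (log2 fold change -2.51 ± 0.26 SE, adjusted p = 0.000461, edgeR). The gene *higd1a*, which is induced by low oxygen in mammals, was higher, with 55.2, 146 and 68.8 CPM, against 38.2, 39.2 and 41.9 CPM (adjusted p = 0.0261, edgeR), a call lost without any 1 of the WT samples. For complex III, 5 of 9 were lower (55.6%, against 32.0% of all genes) and none higher (against 37.5%). Its factor *ttc19*, which clears fragments of the Rieske protein in mammals, had 13.8, 14.0 and 13.9 CPM, against 45.9, 46.8 and 46.1 CPM (log2 fold change -1.73 ± 0.16 SE, adjusted p = 0.000394, edgeR). For complex II, 1 of 4 was lower, *sdhaf4*, at a log2 fold change of -1.06 (adjusted p = 0.0492, edgeR), and its call was lost without any 1 sample except WT replicate 1. For complex V, 2 of 4 were lower.

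Among regulators of mitochondrial biogenesis, 10 of 21 were lower (47.6%, against 32.0% of all genes) and 4 higher (19.0%, against 37.5%), with a median of -0.53. With upper-quartile factors 3 regulators were lower and 8 higher, where 4001 and 9840 of all 20091 genes were. The coactivator *ppargc1a* had 3.06, 13.7 and 4.0 CPM in mutant samples, against 0.82, 0.28 and 0.61 CPM in WT samples (log2 fold change 3.57 ± 0.76 SE, adjusted p = 0.00583, edgeR). No WT sample reached the filter, so it was tested only because mutant samples were high. Its relative *pprc1*, which is linked to growth in mammals, had 103, 100 and 98.1 CPM, against 539, 661 and 662 CPM (log2 fold change -2.63 ± 0.23 SE, adjusted p = 0.000347, edgeR). Neither gene overlapped between genotypes. Of the tricarboxylic acid cycle, which feeds the chain, 4 of 18 genes were higher and 4 lower (22.2% each, below both shares of all genes), led by *ogdh*, a subunit of the 2-oxoglutarate dehydrogenase, at 2.40, and *idh3a*, a subunit of isocitrate dehydrogenase, at -1.14. Of carriers and outer membrane proteins, 3 of 14 were higher and 3 lower (21.4% each, below both shares of all genes), led by the nucleotide exchanger *slc25a6* at 3.36, which also passed the filter through mutant samples alone, and the channel *vdac1* at -1.83. Cytochrome c was tested in 1 gene, *cycsb*, which was not called (log2 fold change 0.65 ± 0.65 SE, adjusted p = 0.399, edgeR).

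The subunits encoded in mitochondrial DNA were examined after these results were seen. All 11 that passed the filter were higher in the mutant, against 37.5% of all genes, with a median log2 fold change of 3.20, and 2 of them, *mt-nd4l* and *mt-nd6*, passed the filter through mutant samples alone. Together the 13 genes summed to 112, 355 and 134 CPM in mutant samples, against 22.8, 19.1 and 27.6 CPM in WT samples, without overlap. The gene for COX1, *mt-co1*, had 53.3, 155 and 65.5 CPM in mutant samples, against 11, 10.9 and 14.1 CPM in WT samples. In every sample the sum of the 13 genes was below the nuclear gene *atp5f1a* alone. That gene had 323, 754 and 367 CPM in mutant samples, against 949, 754 and 856 CPM in WT samples. How reads from mitochondrial DNA were counted is not given in the sources used here. Whether these low values follow the level of the mitochondrial transcripts is therefore not known.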

How the data were processed

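RNA was measured in 6 samples of pooled juvenile gonads. The authors purified total RNA with a column kit and made stranded libraries after removal of ribosomal RNA. The deposited values are raw counts per gene, whole numbers with no normalization. The submitters' processing notes name Trim Galore 0.5.0, Bowtie2 2.3.4.1, featureCounts of Subread 1.6.2, DESeq2 1.18.1, R 3.4.1 and the build GRCz11, with no role stated. The annotation release, the strand setting and the handling of reads with several matches are not given in the sources used here.

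Symbols came from a table of gene names for 29201 genes and from supplementary gene tables for others, 29384 in all, and are written here in lower case. Genes sharing a symbol were kept apart by Ensembl identifier. List genes were matched by symbol and, failing that, without the last a or b. Genotypes were compared with edgeR's two-sided quasi-likelihood test (edgeR 4.0.16, limma 3.58.1, R 4.3.3) with TMM factors and genotype as the only term. The default filter kept genes with about 10 counts in at least 3 samples and 15 in total. Benjamini-Hochberg adjustment ran over all genes tested, with a threshold of 0.05. CPM are counts scaled to the TMM-adjusted library size. The fit was tested on simulated data with few changed genes and no outlying sample. These data differ in both respects, so that check does not bear on the scaling used here. DESeq2 1.42.0, limma-voom, other scalings and filters, a replicate block, summed duplicates and leaving out each sample were alternatives. Figures were made with matplotlib 3.10.9.

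Genes named with values were the 3 largest changes past the threshold in each direction and complex, the highest mean of each complex, duplicated genes with unlike calls, isoforms that are tissue-restricted in mammals, the largest change of each pathway list in each direction, and *eif4e1b*. Any others were chosen after their values were seen. The members and lists were chosen with earlier results of these data known, and the list of mitochondrially encoded subunits and the list counts under each alternative were added after seeing the data. The labels do not say that samples came from separate clutches, so p-values measure only the spread between these samples.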

Additional observations from a re-analysis of the deposited data

How the results depend on the processing

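Of the 10 higher members, 5 had no WT sample over the filter and were tested only through high mutant samples. The other 5 kept their call under the 15 alternatives that gave each a value, and of the 19 lower members *uqcr10*, *atp5if1a* and the *cox7a2* copy ENSDARG00000110700 did. Among those 5, *cox5b2* had 2 WT samples over the filter and the *cox6a1* copy ENSDARG00000054588 had 1. The filter needs 3 samples, so mutant samples were required for both to be tested. Higher members numbered 24 with upper-quartile factors, 5 with duplicated genes summed and 10 to 11 when 1 sample was left out. In the same order, 9840 of 20091, 7523 of 20078 and 6140 to 7818 of all genes tested were higher. Lower members numbered 6 with library totals, 3 with upper-quartile factors, 10 where the change also had to reach 1 on the log2 scale, and 10 to 40 when 1 sample was left out. Among all genes, 3740 were lower with library totals, 4001 with upper-quartile factors and 5558 to 6666 when 1 sample was left out. All genes were not counted where the change also had to reach 1, so that count of members has no background. Samples with the same replicate number did not deviate together (r = 0.12, -0.20 and -0.05). Samples with unlike numbers reached r = -0.40 and 0.40, so this check cannot tell whether the numbers pair samples. With the replicate number as a block, 10 members were higher and 12 lower, where 6625 and 5887 of all 20091 genes were. Medians by complex with upper-quartile factors were 0.56 (I), 0.35 (II), 0.40 (III), 0.66 (IV) and 0.43 (V), and with library totals 0.24 (I) and 0.015 (II). Directions turned only among named genes that were not called. With library totals they were 0.18 (*atp5mc3*), 0.23 (*atp5mc3b*), 0.29 (*cox5aa*), 0.25 (*ndufs8*), 0.27 (*sdha*) and 0.015 (*sdhd* copy ENSDARG00000030139). With upper-quartile factors these genes, in the same order, were 0.54, 0.67, 0.66, 0.67, 0.63 and 0.34, and *cox6b2* was 0.22. With a mean of at least 10 counts *atp5mc3b*, *cox5aa* and *ndufs8* were 0.044, 0.035 and 0.045. When 1 sample was left out, the ranges were -0.41 to 0.55 (*atp5if1b*), -0.64 to 0.19 (*atp5mc3b*), -0.25 to 0.43 (*cox4i1*), -0.39 to 0.13 (*cox5aa*), -0.56 to 0.24 (*ndufs8*) and -0.35 to 0.046 (*sdha*). The causes were not tested. Depth limited the isoforms with under 10 counts in WT samples, such as *cox4i2* and *cox7a1*.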
